A study of Mus musculus with 9 samples.

Results

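Hematopoietic cytokine receptors were examined as 9 genes, Kit, Flt3, Csf1r, Csf3r, Epor, Il3ra, Csf2ra, Csf2rb and Il6ra, which were taken by gene name from the 46078 genes of the deposited count table. Each name matched 1 row, and 8 of the 9 passed the filter on low counts. Their transcripts were compared in RNA-seq libraries of CD45-Ter119-CD31+ cells sorted from the BM of wild-type B6 mice, with no treatment given in the labels. There were 4 libraries of Sca-1+ ECs, whose labels end in 7, 13, 15 and 19, and 5 of Sca-1- ECs, whose labels end in 8, 10, 14, 16 and 22. The labels of libraries 8, 15, 16 and 19 carry the mark wt and those of 10, 13, 14 and 22 a CD452 mark (shortened in 10), that of 7 carries neither, and those of 15 and 16 share a number. The labels give neither age nor sex and do not say whether a library came from 1 mouse or from several, so p-values measure the spread between libraries, which may in part be technical. Their opening running numbers form separate runs in the 2 fractions, so a processing order that follows those numbers and the fraction cannot be told apart.

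These receptors pass the signals that keep blood stem cells, progenitors and mature myeloid and erythroid cells alive and dividing. Kit, Flt3 and Csf1r are receptor tyrosine kinases, for stem cell factor, FLT3 ligand and CSF1. Csf3r (for G-CSF) and Epor (for erythropoietin) act as pairs of the same chain. Il3ra and Csf2ra are the alpha chains for IL-3 and GM-CSF, which signal together with a beta chain, the common Csf2rb for both or, for IL-3 in mice, Csf2rb2. Il6ra binds IL-6 and signals through Il6st (gp130), which many cells carry. ECs are known to carry several of these chains as well, IL-3 and erythropoietin receptors among them.

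Each library held between 21581653 and 25959818 counts. Levels are CPM, counts scaled to library sizes that were adjusted by the TMM method, and 3 counts, taken as the floor, were 0.0995 to 0.209 CPM. The TMM factors were 0.672 and 0.581 in Sca-1- libraries 8 and 10, which raises their CPM, and 0.989 to 1.16 in 14, 16 and 22. Orders over libraries are given in CPM. They can differ in TPM, counts per kb of exon scaled to the same total in every library. The fraction labelled Sca-1- EC was rich in transcripts of other cells. The name Sca-1- ECs stands here for this sorted fraction as labelled, and its levels cannot be assigned to ECs alone. A list of 15 megakaryocyte and platelet genes summed to between 25757 and 111664 CPM there, against 376 to 556 CPM in Sca-1+ ECs, while 15 general endothelial genes summed to 1437 to 4414 CPM against 14531 to 17917 CPM. Of the 15 endothelial genes, 13 were called higher in Sca-1+ ECs and 2, Pecam1 and Esam, were not called. In Sca-1- library 10 these 2 made 1699 and 2373 of the 4414 CPM. Cdh5 was at 2.44 to 13.1 CPM in the Sca-1- libraries. A list of 11 mast cell and basophil genes reached 14126 CPM in Sca-1- library 16 and 551 to 2407 CPM in the other Sca-1- libraries. A list of 12 neutrophil genes reached 789 CPM in Sca-1+ library 19, against 9.28 to 59.4 CPM in the other Sca-1+ libraries. In such bulk samples, fewer cells of a type and less RNA per cell cannot be told apart, and the part of these other cells in the differences below was not tested.

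Of the 8 receptors tested, 2 were lower in Sca-1+ ECs (Csf2ra and Il6ra) and 0 were higher at an adjusted p under 0.05 (edgeR's quasi-likelihood test, two-sided, Benjamini-Hochberg adjustment over the 15937 genes tested). Over all genes tested, 21.4% were lower, 23.3% were higher and 44.8% differed in either direction, so that the share of receptors called lower, 2 of 8, was near that of genes in general. At an unadjusted p under 0.05, 3 receptors were lower and 1 was higher. The share of all genes at that threshold was not counted, but it holds at least the 44.8% called after adjustment. The DESeq2 test called 2 further receptors, Epor lower and Il3ra higher, and limma voom called Il3ra higher. Of the 15937 genes, DESeq2 called 3987 higher and 4253 lower, and limma voom 4397 higher and 3335 lower. The median log2 fold change (Sca-1+ over Sca-1-) was -1.0 over the 8 receptors and 0.07 over all genes tested. Csf2ra was the only receptor whose libraries did not overlap between the fractions. It lay on the lower side in Sca-1+ ECs, as 18.8% of all genes tested did, while 24.8% of genes and 0 of the 8 receptors had every Sca-1+ library above every Sca-1- library.

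**Figure D1:**
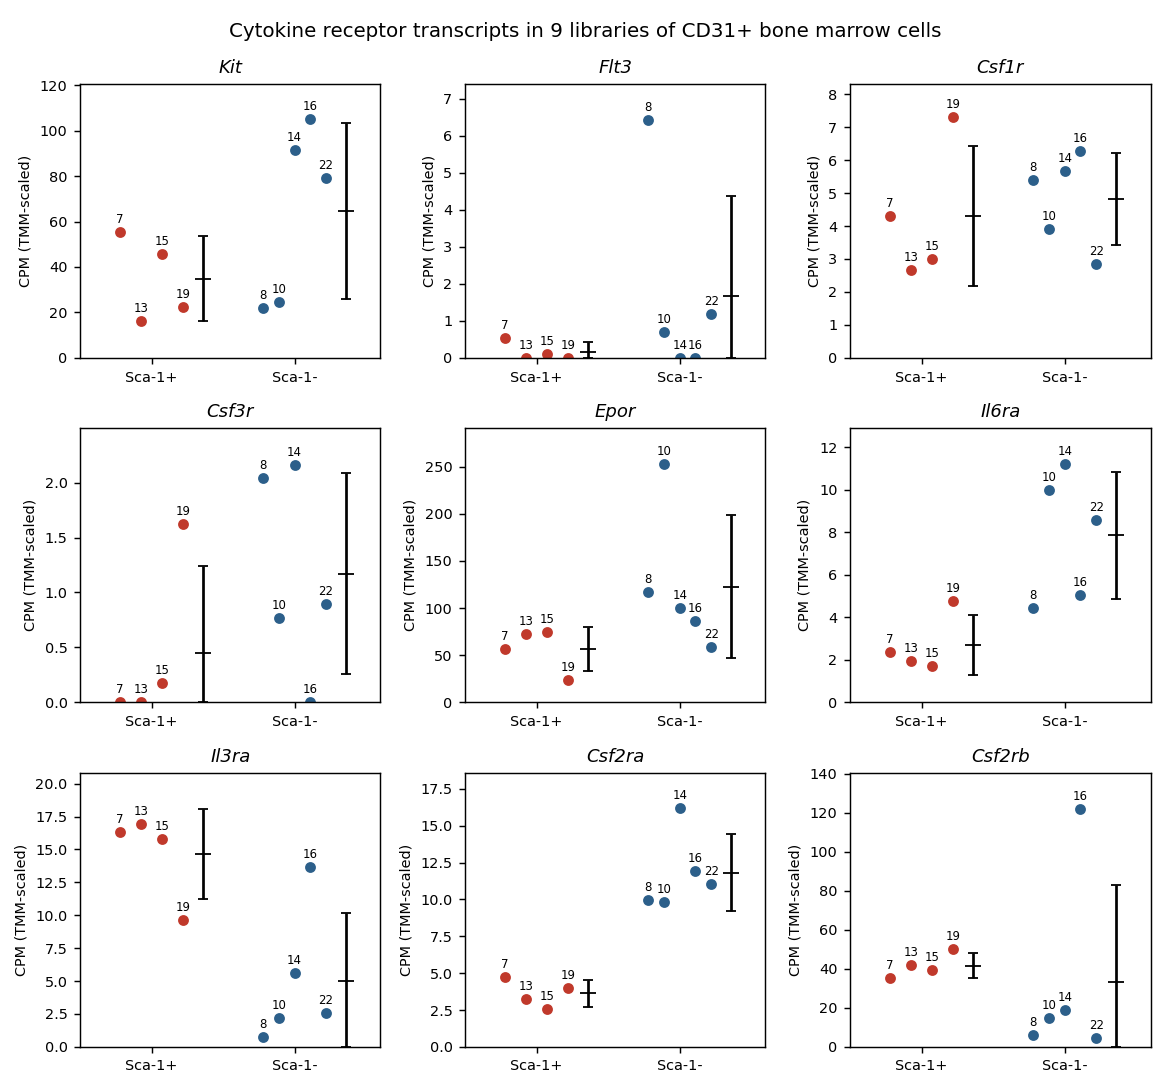
TMM-scaled CPM (vertical axes, linear from 0) of the 9 receptors in each of 4 Sca-1+ (red) and 5 Sca-1- (blue) libraries, numbered by the end of their labels. Black marks give mean ± SD, cut at 0 where the SD passed it; the 4 Sca-1+ values of Csf2ra lie below all 5 Sca-1- values, and Sca-1- library 16 stands far above the other Sca-1- libraries for Csf2rb.

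The letters just before the RefSeq start of transcription are shown for 4 receptor genes, the 2 called lower (Csf2ra and Il6ra), the one with the highest level (Epor) and the second beta chain Csf2rb2. The sequences are RefSeq promoters on GRCm38.p6, 250 bases before the start, 5′ to 3′ on the strand of the gene. Capitals mark matches on either strand to AGATAA or TGATAA, which GATA factors bind, and to GAGGAA, which PU.1 and other ETS factors bind. All 4 genes lie on the minus strand. The last 11 bases shown for Csf2ra lie within its first exon in GENCODE, which starts earlier, and hold the second GAGGAA and part of the first.
Csf2ra (chr19:61228419-61228668): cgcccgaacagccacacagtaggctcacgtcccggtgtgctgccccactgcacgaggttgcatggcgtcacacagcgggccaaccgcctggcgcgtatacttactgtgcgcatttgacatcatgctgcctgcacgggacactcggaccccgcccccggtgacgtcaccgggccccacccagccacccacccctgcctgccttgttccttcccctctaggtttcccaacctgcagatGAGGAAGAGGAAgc
Il6ra (chr3:89913197-89913446): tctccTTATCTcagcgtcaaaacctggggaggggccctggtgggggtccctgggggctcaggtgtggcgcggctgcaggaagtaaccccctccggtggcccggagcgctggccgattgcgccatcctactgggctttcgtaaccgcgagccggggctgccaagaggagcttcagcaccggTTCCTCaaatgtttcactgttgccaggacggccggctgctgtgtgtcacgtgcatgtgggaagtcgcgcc
Epor (chr9:21963577-21963826): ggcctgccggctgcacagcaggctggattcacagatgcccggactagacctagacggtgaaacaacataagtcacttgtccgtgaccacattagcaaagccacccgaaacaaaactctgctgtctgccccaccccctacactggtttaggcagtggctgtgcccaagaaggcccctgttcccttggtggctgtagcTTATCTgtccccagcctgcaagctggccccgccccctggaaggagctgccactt
Csf2rb2 (chr15:78305722-78305971): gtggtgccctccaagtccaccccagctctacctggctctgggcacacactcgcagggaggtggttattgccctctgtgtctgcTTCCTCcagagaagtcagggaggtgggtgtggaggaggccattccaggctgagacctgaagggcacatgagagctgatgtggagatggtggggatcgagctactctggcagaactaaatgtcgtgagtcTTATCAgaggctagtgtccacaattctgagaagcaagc
Of the 9 receptors and Csf2rb2, 8 were found in the promoter table, and Csf1r and Csf2rb were not. A GATA match was found for Epor, Il6ra and Csf2rb2, that is 3 of 8 genes, and in 18.8% of the 27025 genes of the table. A GAGGAA match was found for Csf2ra (2 adjoining matches), Il6ra, Csf2rb2, Kit and Csf3r, that is 5 of 8 genes, and in 25.9% of all genes. CAGCTG, a letter pattern of the E-boxes bound by Tal1 and its partners, was found in 0 of the 8 and in 14.7% of all genes. No match overlapped one of another pattern. Matches are letters only and were not measured as binding.

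The GM-CSF receptor alpha chain Csf2ra (ENSMUSG00000059326, GRCm38 chromosome 19 from 61223957 to 61228429) was the receptor with the firmest difference. It was counted at 4.73, 3.23, 2.59 and 3.98 CPM in Sca-1+ libraries 7, 13, 15 and 19, and at 9.96, 9.83, 16.2, 11.9 and 11.1 CPM in Sca-1- libraries 8, 10, 14, 16 and 22. Every Sca-1- library was above every Sca-1+ library. The means were 3.63 ± 0.928 CPM (SD, n = 4) and 11.8 ± 2.62 CPM (SD, n = 5), and the fitted level was 3.25-fold lower in Sca-1+ ECs (log2 fold change -1.70, SE 0.31, adjusted p = 0.0016 in edgeR's test). Its reads were few, 75 to 139 counts in the Sca-1+ and 141 to 383 in the Sca-1- libraries. Sca-1- library 14, which had the highest Csf2ra, was the highest Sca-1- library in the summed neutrophil list (809.5 CPM, mostly Mpo at 597 and Elane at 124 CPM) and the lowest in the sum of the 3 defining neutrophil genes S100a8, S100a9 and Ltf, at 13.5 CPM against 26.6 to 199 CPM.

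The IL-6 receptor alpha chain Il6ra (ENSMUSG00000027947, chromosome 3 from 89864059 to 89913196) was counted at 2.38, 1.94, 1.72 and 4.76 CPM in the Sca-1+ libraries and at 4.44, 9.97, 11.2, 5.04 and 8.58 CPM in the Sca-1- libraries, in the same order of labels. Only Sca-1+ library 19 reached into the Sca-1- range. Among libraries marked wt, 15 and 19 (Sca-1+) were at 1.72 and 4.76 CPM and 8 and 16 (Sca-1-) at 4.44 and 5.04 CPM, which overlapped, while of those marked CD452 the Sca-1+ library, 13, was below all 3 Sca-1- libraries. The fitted level was 2.91-fold lower in Sca-1+ ECs (log2 fold change -1.54, SE 0.46, adjusted p = 0.019 in edgeR's test). This call was near the threshold, since without Sca-1+ library 7, 13 or 15 the adjusted p was 0.056, 0.057 or 0.062 in edgeR's test. The log2 fold change was then -1.48, -1.405 or -1.37. Without Sca-1+ library 19 it was -1.95 (adjusted p = 0.0089 in edgeR's test). An opposite-strand gene, Gm42809, shares 242 bases of exon with Il6ra, and reads there cannot be told apart, since the libraries do not mark strand.

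Its signalling partner Il6st went the other way. Il6st (gp130, chromosome 13 from 112464070 to 112510086) was counted at 598, 554, 792 and 811 CPM in Sca-1+ ECs and at 60.6, 18, 21.4, 86.7 and 99.3 CPM in Sca-1- ECs. The fractions did not overlap, and the fitted level was 12-fold higher in Sca-1+ ECs (log2 fold change 3.59, SE 0.52, adjusted p = 0.00042 in edgeR's test). Per base of exon, Il6st exceeded Il6ra by 133 to 358 times within the Sca-1+ libraries and by 1.40 to 13.4 times within the Sca-1- libraries. The log2 ratio of Il6ra to Il6st per length was -7.74 ± 0.590 (SD, n = 4) in Sca-1+ and -2.28 ± 1.61 (SD, n = 5) in Sca-1- ECs (exact permutation test over libraries, two-sided p = 0.0079, as small as this design can give). The 2 genes had already been called in opposite directions, so this p is not separate support. Within Sca-1- ECs the ratio took separate values, -0.49 and -0.57 in libraries 10 and 14 and -3.17 to -3.74 in libraries 8, 16 and 22.

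The common beta chain Csf2rb (ENSMUSG00000071713, chromosome 15 from 78325752 to 78353847) and the IL-3 alpha chain Il3ra (ENSMUSG00000068758, chromosome 14 from 14346275 to 14356011) overlapped between the fractions through Sca-1- library 16. Csf2rb was counted at 35.4, 42.1, 39.3 and 50.1 CPM in the Sca-1+ libraries and at 6.0, 14.6, 18.9, 122 and 4.76 CPM in the Sca-1- libraries. Il3ra was counted at 16.3, 16.9, 15.8 and 9.63 CPM in the Sca-1+ libraries and at 0.780, 2.16, 5.64, 13.7 and 2.60 CPM in the Sca-1- libraries. For both genes Sca-1- library 16 was the highest of its fraction, above all Sca-1+ libraries for Csf2rb and above 1 of the 4 for Il3ra, library 19, which was the lowest of the Sca-1+ libraries. Mice carry a second beta chain next to the common one, Csf2rb2, which serves IL-3 alone. It was counted at 12.4, 12.4, 15.7 and 20.2 CPM in Sca-1+ ECs and at 1.62, 3.90, 5.85, 27.1 and 1.1 CPM in Sca-1- ECs, again with library 16 on top. Il3ra shares 46 bases of exon with the opposite-strand gene Gm48860, whose reads there cannot be told apart, since the libraries do not mark strand.

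Over all 9 libraries, without a block, none of these 3 differences passed the test. The log2 fold change was 0.33 for Csf2rb (SE 0.84, adjusted p = 0.78 in edgeR's test), 0.93 for Csf2rb2 (SE 0.81, adjusted p = 0.38 in edgeR's test) and 1.55 for Il3ra (SE 0.68, adjusted p = 0.087 in edgeR's test). With libraries 15 and 16, whose labels share a number, as a block, Il3ra was called higher in Sca-1+ ECs (log2 fold change 1.90, adjusted p = 0.029 in edgeR's test). Without Sca-1- library 16 all 3 were called higher in Sca-1+ ECs in edgeR's test, where 23.8% of genes were. The log2 fold change was then 1.91 for Csf2rb (adjusted p = 0.0063), 2.27 for Csf2rb2 (adjusted p = 0.0072) and 2.37 for Il3ra (adjusted p = 0.0066). Sca-1- library 16 also held the most mast cell and basophil RNA, with 8284 CPM of the basophil protease Prss34, 3189.6 CPM of Mcpt8, 433 CPM of Cpa3 and 312 CPM of Ms4a2, a chain of the IgE receptor. Of the connective tissue mast cell proteases, Mcpt4 and Tpsb2 had 0 counts in every library, and Cma1 had 21 counts (1.26 CPM), all in Sca-1- library 8. In the 5 Sca-1- libraries, Csf2rb, Csf2rb2 and the summed list of 11 genes stood in the same order in CPM, 22, 8, 10, 14 and 16 from lowest to highest. So did the sum of the 12 ligand genes described below. In TPM, both beta chains were lowest in library 8, at 1.56 (Csf2rb) and 0.648 (Csf2rb2), against 2.20 and 0.778 in library 22. The sum of the 4 defining mast cell and basophil genes (Cpa3, Ms4a2, Mcpt8 and Hdc) ran 8, 22, 10, 14 and 16. Gata2, which ECs also express, made 927 of the 1014 CPM of the mast cell and basophil list in library 8 and 1823 of the 2178 CPM in library 10. In the Sca-1+ libraries the list was at 107 to 249 CPM, of which Gata2 made 99.3 to 166 CPM. The 4 defining genes summed to 7.22, 11.8, 6.04 and 43.4 CPM in Sca-1+ libraries 7, 13, 15 and 19, the last above the 39.1 CPM of Sca-1- library 8. Library 19 was also the Sca-1+ library with the highest Csf2rb and Csf2rb2.

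**Figure D2:**
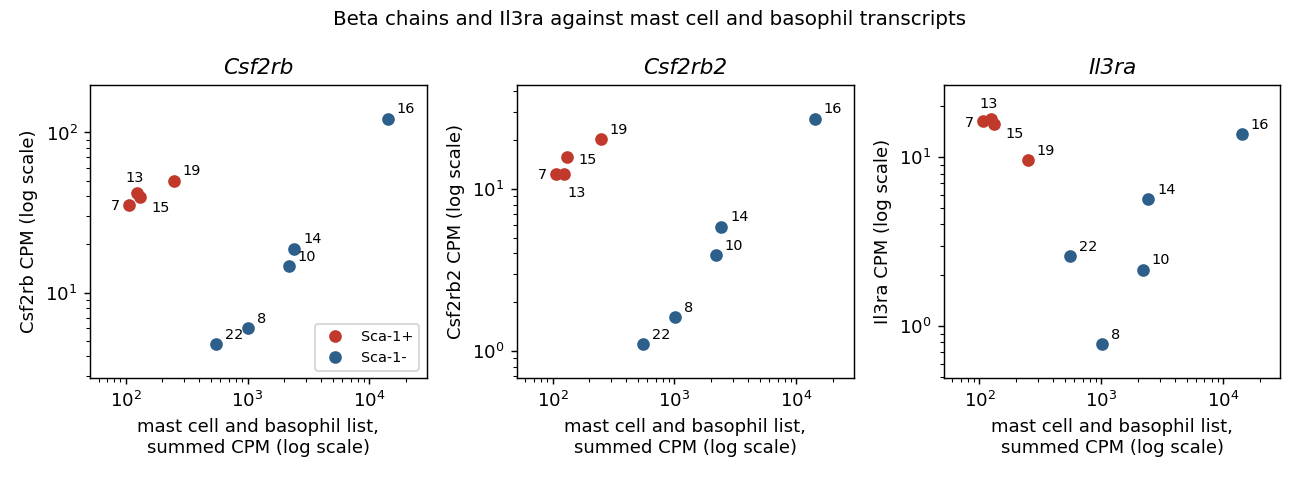
CPM of Csf2rb, Csf2rb2 and Il3ra (vertical axes, log scale) against the summed CPM of 11 mast cell and basophil genes (horizontal axes, log scale) in 4 Sca-1+ (red) and 5 Sca-1- (blue) libraries, numbered by label. Among the blue points the beta chains stand in the order of the list, which in libraries 8 and 10 is mostly Gata2, while the red points combine a list sum of 107 to 249 CPM with 35.4 to 50.1 CPM of Csf2rb.

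The beta chains are close copies. Their longest transcripts were 92.8% identical over 4554 aligned bases, and 12.3% of the 50-base windows of Csf2rb transcripts also occurred in Csf2rb2, so their separate levels are uncertain to the degree that reads could not be placed. Csf2rb held 74.1%, 77.2%, 71.4% and 71.3% of the beta chain reads in the Sca-1+ libraries and 78.7%, 78.9%, 76.3%, 81.8% and 81.3% in the Sca-1- libraries. The mean share was 73.5% ± 2.80 (SD, n = 4) against 79.4% ± 2.20 (SD, n = 5), lower in Sca-1+ ECs by the same exact permutation test (two-sided p = 0.024). The ranges overlapped by 1 library, Sca-1+ library 13. The chains were thus counted in similar proportion in all 9 libraries, including the Sca-1- libraries between which the Csf2rb level ran from 4.76 to 122 CPM.

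The alpha chains that share Csf2rb were balanced differently in the fractions. Per base of exon, Csf2ra was at 0.170 to 0.427 times Il3ra within the Sca-1+ libraries and at 0.901 to 13.2 times Il3ra within the Sca-1- libraries, without overlap. Csf2rb was at 2.95 to 6.0 times Csf2ra in Sca-1+ and at 0.170 to 4.03 times in Sca-1- libraries, of which only library 16 exceeded 2.95. Il5ra, the remaining alpha chain of this family, was at 0.163 CPM or less in every library.

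The erythropoietin receptor Epor (ENSMUSG00000006235, chromosome 9 from 21958897 to 21963506) had the highest level per length of the 9 receptors in both fractions. It was counted at 56.4, 72.2, 74.8 and 23.4 CPM in Sca-1+ ECs and at 117, 253, 99.99, 86.2 and 58.3 CPM in Sca-1- ECs. The fractions overlapped through Sca-1- library 22 alone. The log2 fold change was -1.11 (SE 0.46, adjusted p = 0.075 in edgeR's test), and without Sca-1- library 22 it was -1.30 (adjusted p = 0.043 in edgeR's test). In Sca-1- ECs the Epor levels and the sums of 10 erythroid genes had the same order in CPM, 22, 16, 14, 8 and 10 from lowest to highest. The erythroid sum lay between 622 and 2163 CPM. The summed transcription factors of the receptor genes had this order in CPM too. The order of Epor depended on the scale, since in TPM it was at 98.4, 112, 133, 136 and 216 in libraries 22, 8, 14, 16 and 10. The megakaryocyte and platelet sum and the general endothelial sum ran 16, 22, 14, 8 and 10. Globins carried the erythroid sum, with Hba-a1 at 1583 CPM in library 10. The sum of the defining erythroid genes Klf1 and Slc4a1 ran in another order, 10, 8, 22, 14 and 16, from 71.8 to 264 CPM. The 2 libraries with the highest Epor in CPM, 8 and 10, thus had the lowest sum. In Sca-1+ ECs the orders differed, since library 19 had the lowest Epor level and the highest erythroid sum, 213 CPM against 49.4 to 63.7 CPM in the others.

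Kit (ENSMUSG00000005672, chromosome 5 from 75574916 to 75656722), the receptor of stem cell factor, was present in every library. It was counted at 55.3, 16.2, 45.6 and 22.3 CPM in Sca-1+ ECs and at 21.8, 24.6, 91.3, 105 and 79.4 CPM in Sca-1- ECs. Sca-1- libraries 8 and 10 lay within the Sca-1+ range and libraries 14, 16 and 22 above it. The difference did not pass the test (log2 fold change -0.89, SE 0.55, adjusted p = 0.22 in edgeR's test). The stem and progenitor list of 11 genes summed to 356 to 1034 CPM in Sca-1- ECs and to 1056 to 1499.8 CPM in Sca-1+ ECs, where Cd34, which ECs also express, made 809.7 to 1231 CPM. In the Sca-1- libraries this sum ran 16, 14, 22, 8 and 10 from lowest to highest, the sum of its 3 defining genes (Cd34, Hlf and Myb) 10, 8, 14, 16 and 22, and Kit 8, 10, 22, 14 and 16.

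Flt3 (ENSMUSG00000042817, chromosome 5 from 147330741 to 147400489), the receptor of early lymphoid and myeloid progenitors, was at or under the floor of 3 counts in 3 of 4 Sca-1+ and 2 of 5 Sca-1- libraries. Its counts were 16, 0, 3 and 0 in the Sca-1+ libraries and 107, 10, 0, 0 and 29 in the Sca-1- libraries, and it was the receptor that failed the filter. A count of 0 allows up to 3 counts, which was 0.0995 to 0.127 CPM in these libraries. Sca-1- library 8 held most of its reads, at 6.42 CPM.

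The CSF1 receptor Csf1r (ENSMUSG00000024621, chromosome 18 from 61100598 to 61132149), which monocytes and macrophages carry, was low in both fractions. It was counted at 4.29, 2.65, 3.0 and 7.31 CPM in Sca-1+ ECs and at 5.40, 3.90, 5.68, 6.27 and 2.85 CPM in Sca-1- ECs. The ranges lay over each other, and the log2 fold change was -0.16 (SE 0.42, adjusted p = 0.78 in edgeR's test). The 3 defining monocyte and macrophage genes summed to 5.14 to 11.7 CPM in Sca-1+ and to 2.09 to 10.1 CPM in Sca-1- ECs. Of these, Adgre1 (F4/80) was at 0.0813 to 4.15 CPM and Fcgr1 at 0 to 0.636 CPM over the 9 libraries. The sum of the whole list of 12 monocyte and macrophage genes was higher in Sca-1+ ECs, at 587 to 794 CPM against 20.7 to 122 CPM. Of its 9 tested genes, however, 3 were called higher and 6 were not called, with a median log2 fold change of -0.23. Hmgxb3 on the opposite strand shares 873 bases of exon with Csf1r, so its reads could add to the Csf1r level.

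The G-CSF receptor Csf3r (ENSMUSG00000028859, chromosome 4 from 126024550 to 126044440), typical of neutrophils, was counted at 0, 0, 0.172 and 1.62 CPM in Sca-1+ ECs and at 2.04, 0.767, 2.16, 0 and 0.895 CPM in Sca-1- ECs. The log2 fold change was -1.38 (SE 1.5, adjusted p = 0.48 in edgeR's test). Of the 47 Csf3r reads in Sca-1+ ECs, 42 came from library 19, which also held 167 CPM of S100a8, 182 CPM of S100a9 and 103 CPM of Ltf against at most 1.94, 1.62 and 1.0 CPM in the other 3 Sca-1+ libraries. Without that library the log2 fold change was -4.23 (adjusted p = 0.081 in edgeR's test). In the 5 Sca-1- libraries, Csf3r and the summed neutrophil list stood in the same order, 16, 10, 22, 8 and 14 from lowest to highest, and in Sca-1+ ECs library 19 was the highest in both. The sum of the defining genes S100a8, S100a9 and Ltf ran 14, 16, 22, 10 and 8, and in library 14 the list was mostly Mpo (597 CPM) and Elane (124 CPM), with 0 counts of Ltf and Camp.

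**Figure D3:**
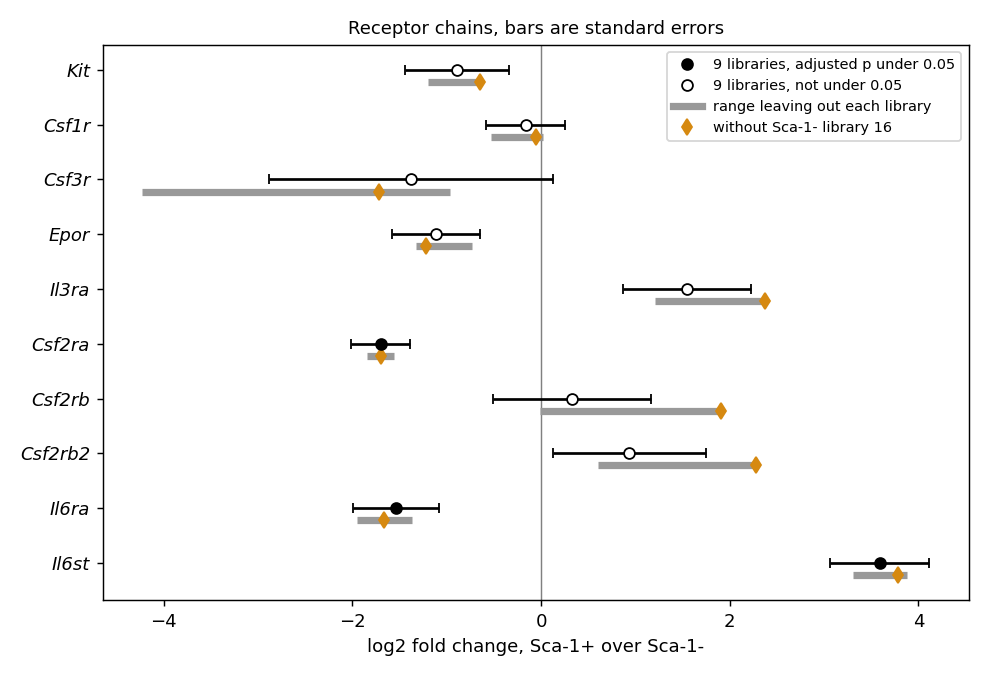
Log2 fold change of Sca-1+ over Sca-1- (horizontal axis) for 8 receptors and the chains Csf2rb2 and Il6st, with SE bars, filled where the adjusted p was under 0.05. Grey bars span the values with each library left out in turn and diamonds show those without Sca-1- library 16, which lie at 1.91 to 2.37 for Csf2rb, Csf2rb2 and Il3ra.

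Ranked per exon length within a library (TPM, counts per kb scaled to the same total in every library), the receptors stood in different orders in the fractions. In Sca-1+ ECs Epor came first at 97.6 ± 40.9 TPM, followed by Csf2rb at 19.5 ± 2.28, Il3ra at 16.9 ± 4.27 and Kit at 13.5 ± 7.55 TPM (SD, n = 4). The ranges of Csf2rb, Il3ra and Kit overlapped, so their order was not clear of the spread, while Epor lay above all 3. Then came Csf2ra at 4.33 ± 1.21, Csf1r at 2.53 ± 1.18, Il6ra at 1.06 ± 0.514, Csf3r at 0.408 ± 0.714 and Flt3 at 0.0929 ± 0.151 TPM (SD, n = 4), each overlapping the next, and the highest value of Csf2ra lay below the lowest of Kit. In Sca-1- ECs Epor was again first at 139 ± 45.9 TPM, with no overlap with Kit at 20.7 ± 15.1 TPM (SD, n = 5). Csf2rb at 13.3 ± 22, Csf2ra at 10.7 ± 4.16, Il3ra at 4.84 ± 5.67, Il6ra at 2.31 ± 1.05, Csf1r at 2.12 ± 0.890, Csf3r at 0.769 ± 0.615 and Flt3 at 0.561 ± 0.831 TPM followed (SD, n = 5), all with overlapping neighbours. Csf2rb exceeded Csf2ra in 1 of these 5 libraries, so its place before Csf2ra rested on library 16. For scale, Il6st was at 211 ± 34.7 TPM in Sca-1+ ECs (SD, n = 4).

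**Figure D4:**
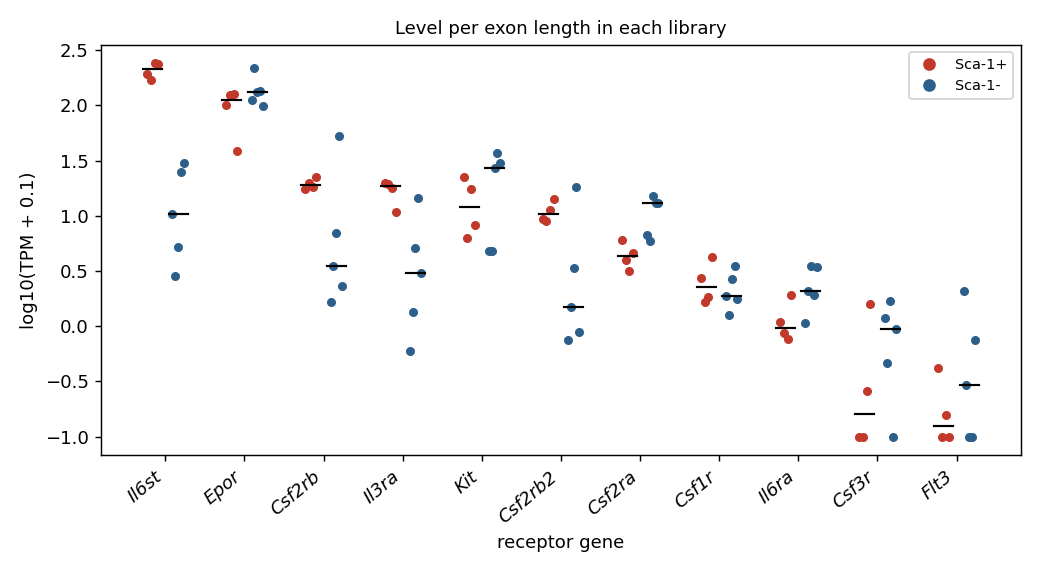
Level per exon length of the 9 receptors and of Csf2rb2 and Il6st, as log10(TPM + 0.1), in each Sca-1+ (red) and Sca-1- (blue) library, with black lines at the medians. Epor is the highest of the 9 receptors in both fractions, while Il6st is high in Sca-1+ ECs.

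The genes whose log2 CPM followed a receptor most closely over the 9 libraries were found among the 15937 tested genes, as a description only. For Csf2rb these were Csf2rb2 (Pearson r = 0.983), the predicted gene Gm15629 (r = 0.951) and Csf1 (r = 0.947). For Csf3r they were led by Chil3 (r = 0.936), a neutrophil and macrophage gene. For Il3ra they were Tet2 (r = 0.984), Fxyd5 (r = 0.980) and Kti12 (r = 0.972), for Csf2ra Aldh18a1 (r = 0.981), Ttc7 (r = 0.978) and Ank (r = 0.977), and for Il6ra Hnrnpc (r = 0.962), Plaa (r = 0.946) and Cenpl (r = 0.943). For Epor the closest was Zcchc9 (r = 0.987), for Kit 9530027J09Rik, Hacd2 and Ttc13 (each r = 0.958) and for Csf1r Txnrd3 (r = 0.922). The 9 points share libraries and the difference between fractions, and the values at the top of so many genes are high by selection.

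The ligands of these receptors were measured in the same libraries. Of 12 ligand genes 6 were tested. In Sca-1+ ECs 3 of them were higher and 0 lower, with a median log2 fold change of 2.29. Kitl, the ligand of Kit, had a level of 182 ± 89.8 CPM in the 4 Sca-1+ libraries (mean ± SD), where the 5 Sca-1- libraries had 5.64 ± 3.10 CPM (log2 fold change 5.01, SE 0.50, adjusted p = 5.3e-05 in edgeR's test). Csf3 (G-CSF) was at 55.9 ± 29.2 CPM against 0.736 ± 1.57 CPM (log2 fold change 6.19, SE 1.40, adjusted p = 0.005 in edgeR's test) in the fraction where Csf3r was at 0 in 2 of 4 libraries. Il6 was higher as well (log2 fold change 2.90, SE 0.85, adjusted p = 0.019 in edgeR's test), beside a low Il6ra and a high Il6st. Csf1, Flt3l and Il34 did not pass the test (log2 fold changes 1.33, 0.44 and 1.68). Il3, Il5 and Epo had 0 counts in every library, and Csf2, the gene of GM-CSF, was at no more than 0.102 CPM.

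Among 20 partner and related receptor chains, 15 were tested, with 8 higher and 2 lower in Sca-1+ ECs and a median log2 fold change of 1.82. The higher ones were Il6st and its partners Lifr (log2 fold change 3.05, SE 0.37), Osmr (4.13, SE 0.67) and Il11ra1 (1.54, SE 0.26), the common gamma chain Il2rg (3.13, SE 0.49) with Il4ra (3.11, SE 0.34), and Lepr and Ghr (1.98, SE 0.49, and 1.82, SE 0.38). Thus 4 of the 8 belonged to the gp130 group, of which Il6ra was the chain called lower. The lower ones were Il21r (log2 fold change -7.24, SE 0.68) and Il7r, which had 0 counts in every Sca-1+ library and 0.60 to 21.4 CPM in Sca-1- ECs. The kinases Pdgfra and Pdgfrb, relatives of Kit and Csf1r, did not pass the test (log2 fold changes -0.21 and 2.47).

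Downstream, of 28 signal transduction genes tested 6 were higher in Sca-1+ ECs, 14 lower and 8 not called, with a median log2 fold change of -1.48. The lower ones were led by the hematopoietic signalling proteins Grap2 (log2 fold change -10.17, SE 0.99), Vav1 (-9.60, SE 0.71), Lcp2 (-5.29, SE 0.53) and Pik3cg (-4.48, SE 0.41), and the higher ones by Jak3 (2.34, SE 0.23), which serves Il2rg, then Plcg1 (2.10, SE 0.31), Gab3 (1.43, SE 0.32) and Sos1 (1.14, SE 0.34). Named after their values were seen, Jak2, Stat5a and Stat5b, the kinase and factors used by Epor and the beta chains, were all lower (log2 fold changes -2.22, -1.86 and -3.07, adjusted p = 0.00061, 0.00085 and 0.0014 in edgeR's test).

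Of 19 negative regulators tested, 7 were higher, 9 lower and 3 not called, with a median log2 fold change of -1.20. Higher were Socs3 (log2 fold change 3.20, SE 0.36), which acts on gp130, Socs1 (2.89, SE 0.44), Socs2 (2.77, SE 0.38) and the ubiquitin ligase Cblb (2.44, SE 0.44). Lower were the adaptors Sla (-10.04, SE 1.62) and Dok2 (-8.67, SE 0.39) and the phosphatases Ptprj (-6.81, SE 0.74) and Ptpn6 (-4.95, SE 0.70), the last of which dampens Kit and Epor. Relatives could go opposite ways. Named after their values were seen, Cbl (-3.23, SE 0.75) and Sh2b3 (-2.60, SE 0.62) were lower while Cblb and Sh2b2 (1.79, SE 0.46) were higher.

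Of 17 target genes of these receptors tested, 8 were higher and 4 lower, with a median log2 fold change of 1.01. They were led by Id1 (log2 fold change 4.68, SE 0.52), Pim3 (3.80, SE 0.30), Dusp6 (2.74, SE 0.22) and Egr1 (2.60, SE 0.42) on the higher side and by Osm (-6.50, SE 1.35), Bcl2l1 (-3.17, SE 0.56) and Ccnd3 (-2.56, SE 0.33) on the lower side. Of 20 transcription factors of the receptor genes tested, 4 were higher and 12 lower, with a median of -2.78. The higher ones were led by Erg (3.21, SE 0.51), Ets1 (2.33, SE 0.36) and Irf8 (2.13, SE 0.27), and the lower ones by Nfe2 (-9.56, SE 0.94), Gata1 (-8.08, SE 0.71), Gfi1b (-7.0, SE 0.53) and Myb (-5.87, SE 0.72). Nfe2, Gata1 and Gfi1b are also markers of the megakaryocyte and erythroid lines, and Myb is a defining gene of the stem and progenitor list. Many of these genes serve receptors outside the 9 as well.

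**Figure D5:**
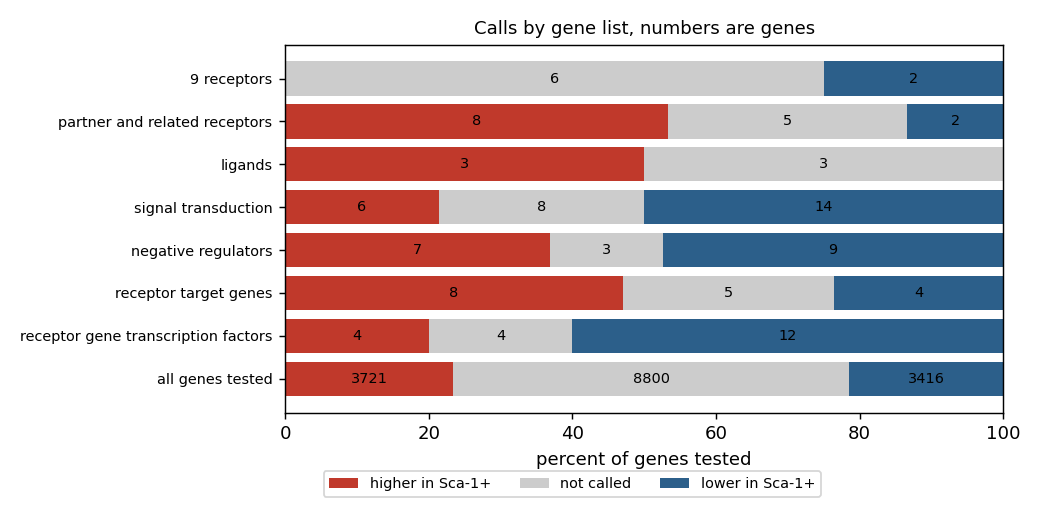
Share of tested genes (horizontal axis, percent) that were higher (red), lower (blue) or not called (grey) in Sca-1+ against Sca-1- ECs for the receptors, 6 related gene lists and all genes tested, with the number of genes in each bar. The receptors have 2 lower and 6 not called, where 8 of the 15 partner chains are higher.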

How the data were processed

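RNA-seq libraries of 4 Sca-1+ and 5 Sca-1- BM EC samples were analysed, grouped by the deposited labels. They were made with a SMART-Seq v4 kit from 2 ng of total RNA, which primes on poly(A) tails, does not mark strand and carries no unique identifiers, so PCR copies are counted and intervals or floors cover counting error only. The authors deposited whole-number read counts per Ensembl gene, not normalized. The submitters' processing notes name STAR, featureCounts and mm10, and versions and the strand setting are not given in the sources used here. The columns of all 9 libraries were used.

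Differences were fitted with edgeR 4.0.16 in R 4.3.3 (filterByExpr with a minimum count of 10 and total of 15, TMM, quasi-likelihood F-test, Benjamini-Hochberg threshold 0.05), with standard errors from the F statistic. Log2 CPM used a prior count of 2. No pair of libraries of a fraction was a copy, with a chi-square of at least 40.0 per degree of freedom. On simulated counts with 200 changed genes, edgeR called 48 of 95 genes tested with a 4-fold change and 82 of 96 with a 16-fold change. In the data 44.8% of genes tested were called, a far larger share than was changed in the simulation. The adjusted threshold depends on that share, so these rates do not measure how many true differences were found here. Coordinates, lengths and overlaps came from GENCODE M21 (45229 of 46078 identifiers matched) and promoters from RefSeq. Of 271 symbols in the lists, 270 matched the table, and Epb42 did not.

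The receptors and the gene lists were chosen with earlier results of these data known, and the lists were written from general knowledge. Genes named from the lists were the receptors, their partners and ligands, the defining markers, and up to 4 genes each way of the other lists with the largest log2 fold change among those called without overlap. Each receptor was also given the 3 genes closest to it in Pearson r over libraries. Other genes are named as chosen after their values were seen, and the values of further listed marker genes, chosen likewise, are given where a receptor's level is described beside them. Alternatives were DESeq2 1.42.0, limma 3.58.1 voom, other scalings, no filter, a robust fit, a block for libraries 15 and 16, whose labels share a number, and leaving out libraries. Further listed genes are not reported here and are not counted in the lists.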

Additional observations from a re-analysis of the deposited data

Results flagged for a closer look

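In 26 groups of values (the receptors with Csf2rb2 and Il6st and the ratios, by fraction), 5 held a library far from the others by Dixon's criterion. Its limit is set so that chance flags about 1 of 20 groups of independent, normally distributed values. Levels in CPM on a linear scale are skewed, and Csf2rb and Csf2rb2 can share reads. The 5 of 26 therefore cannot be set against that rate, and the flags are a description only. Csf2rb in Sca-1- library 16 was at 122 CPM, against 4.76 to 18.9 CPM in the other Sca-1- libraries, and Csf2rb2 in the same library at 27.1 CPM against 1.1 to 5.85 CPM. This library also held the most mast cell and basophil RNA, and the part of that RNA was not tested. In Sca-1+ library 19, Csf3r was at 1.62 CPM, against 0 to 0.172 CPM in the other Sca-1+ libraries, and Il3ra at 9.63 CPM, against 15.8 to 16.9 CPM. Flt3 in Sca-1- library 8 was at 6.42 CPM, against 0 to 1.18 CPM in the other Sca-1- libraries.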

How the results depend on the processing

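Csf2ra remained lower in Sca-1+ ECs under all 19 alternatives and Il6ra under 15, with no change of sign. The number of receptors called higher rose from 0 to 1 (Il3ra) with the block of libraries 15 and 16, with DESeq2 and with limma voom. There 3649, 3987 and 4397 of 15937 genes were called higher. It rose to 2 (Csf2rb and Il3ra) with Sca-1- library 16 and Sca-1+ library 19 both left out, a choice made after seeing the data. There 3283 of 16082 genes were called higher. It ranged from 0 to 2 when each library was left out in turn, where 3098 to 3708 genes were called higher. With both left out, Csf3r was also called lower (log2 fold change -4.56, adjusted p = 0.022 in edgeR's test). The number of receptors called lower ranged from 1 to 3 when each library was left out (3 without Sca-1- library 22, with Epor), where 2859 to 3577 genes were called lower. With library sizes alone it was 1, where 2431 of 15937 genes were called lower and Il6ra was at -1.17 (adjusted p = 0.090 in edgeR's test). Scaling by library size alone moved the median log2 fold change of all genes from 0.07 to 0.43, and Csf1r then had a log2 fold change of 0.19. Scaling to the general endothelial genes moved that median to -4.0, with 266 genes called higher and 13863 lower. All 8 receptors tested were then called lower, with Il3ra at -2.37 and Csf2rb at -3.54, and Csf2rb2 was at -2.97 and Il6st at -0.32. Relative to the moved median, Il3ra, Csf2rb, Csf2rb2 and Il6st stayed on the higher side. Leaving out each library in turn moved Csf1r between -0.54 and 0.017 and Csf2rb between -0.014 and 1.91. The difference in the Csf2rb share of beta chain reads lay between -7.14 and -5.16 percentage points, with an exact permutation p of 0.057 without Sca-1- library 8, 10, 16 or 22. With the block of libraries 15 and 16, the log2 fold change of Il3ra was 1.90 (adjusted p = 0.029 in edgeR's test) and no other receptor changed its call. Levels per length summed over the receptors moved by less than the spread between libraries when the longest transcript set the length. Counts were few for Flt3, which failed the filter on low counts, and for Csf3r, which had 0 counts in 3 libraries, and DESeq2 gave no adjusted p for Csf2rb and Csf2rb2. The causes of the changes were not tested.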
